A study of Emiliania huxleyi with 18 samples.

Results

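In Emiliania huxleyi, 78 genes stayed within set limits of change as control cultures aged, did not exceed a small difference under weak UV on days 7 and 10, and were higher under UV on day 13. These 78 genes came from 16714 with a total of at least 200 UMIs, among 41734 in the deposited matrix. A UMI (unique molecular identifier) tags 1 captured transcript, so that copies made by amplification are counted once. The measured values themselves chose the members. In control cultures the mean log2 CPM (the UMI count relative to the scaled size of its library) had to change by less than 0.7 from day 7 to day 10 and again from day 10 to day 13. The UV-minus-control difference had to lie below 0.15 on days 7 and 10 and reach at least 0.4 on day 13, with every UV library above every control library. The limits on age are per step: from day 7 to day 13 the control change of the members ran from -1.29 to 1.08, and in 5 of them it was 1 or more in size. Every difference between groups given below for these genes is therefore a description of what was chosen, with no test.

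The study measured RNA in axenic cultures of strain CCMP3266 under 2 light regimes and at 3 ages. Control cultures had growth light alone, 16 h per day at 130 µmol photons per m2 per s. UV cultures had the same light plus a lamp inside the growth chamber for 14 h of each light period, at an intensity (W per m2) of 0.5 for UV-A, 0.07 for UV-B and 0.026 for UV-C. All 6 groups shared 18 °C, artificial sea water and L1 nutrients without silicate, and cultures were harvested on day 7, 10 or 13 with 3 libraries per group. The labels number the libraries of a group but do not say whether 1 culture was sampled on several days, so harvest days may not be independent. Nor do they say that the 3 libraries of a group came from separate cultures, so p-values measure the spread between these libraries, which may be technical.

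E. huxleyi is a unicellular coccolithophore, an alga that covers its cells with calcium carbonate plates and forms large blooms in surface sea water. UV-B damages DNA and the photosynthetic machinery of such cells, and algae respond with light-driven and enzymatic repair, antioxidants and screening compounds. In batch culture, cells grow exponentially and then slow down as nutrients and light per cell run down, so harvest days also differ in culture age. The files do not pair the identifiers of the genes with names, descriptions or sequences, and 0 identifiers matched the RefSeq gene table of strain CCMP1516, so no function is given for any member. Identifiers are therefore printed for 4 members only, and the others are given by their rank in day 13 difference, with rank 1 the highest.

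UMI totals ranged from 1060640 to 9216603 per library. On day 10, replicates 1 and 2 of both arms were shallow, with 1124600 to 1699470 UMIs, and their ratio of UMIs to reads was 0.87 to 0.876, while the remaining 14 libraries had 0.7 to 0.795. UV day 7 replicate 1 was the shallowest, with 1060640 UMIs. The members' UMIs per read followed those of their libraries at slightly higher values. On day 10 they were 0.879 to 0.893 in the shallow libraries and 0.729 and 0.732 in the deep ones. On day 13 they were 0.792 to 0.808 in control and 0.801 to 0.81 in UV libraries. CPM are relative to a library's total, so more RNA of a gene per cell and more cells with it cannot be told apart.

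Both the early and the late limits of the rule removed many genes. Of the 16714 genes, 11720 stayed within the limits on control age, and 6893 of these were below 0.15 on both early days. Only 118 of the 6893 reached 0.4 on day 13, and 78 of the 118 had UV and control libraries that did not overlap on that day. Across all 16714 genes, 10.4% had every UV library above every control library on day 13. A further 23 genes met all conditions but the day 7 limit and 62 met all but the day 10 limit.

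The edges of the rule were not gaps in the data. The lowest day 13 differences inside were 0.402, 0.407 and 0.408, and the highest outside were 0.398, 0.397 and 0.396. For the day 7 limit the nearest values were 0.134 inside and 0.17 outside, and for the day 10 limit 0.146 inside and 0.153 outside. The narrowest separation of UV from control libraries on day 13 was 0.000282 log2 CPM among members, with a median of 0.195, and the nearest gene outside overlapped by -0.00177. The members are thus the upper edge of a continuous distribution.

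**Figure D1:**
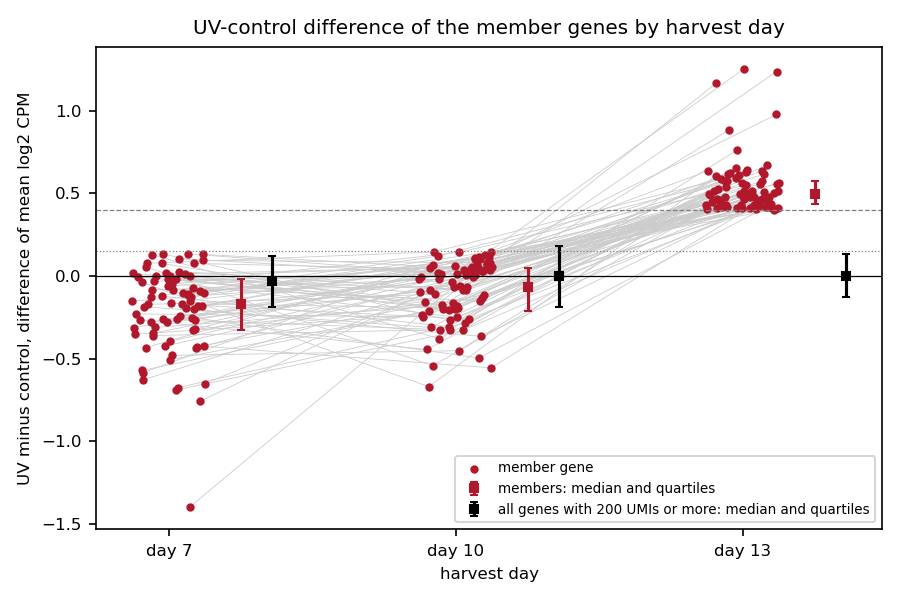
UV-minus-control difference in mean log2 CPM (y axis) on each harvest day (x axis) for the 78 members (points joined by lines), with medians and quartiles of the members (red squares) and of all 16714 genes with at least 200 UMIs (black squares). Dotted and dashed lines mark the limits of 0.15 and 0.4; the members' median goes from -0.169 on day 7 to 0.493 on day 13, while that of all genes stays near 0.

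The late differences were mostly modest. Their day 13 difference ran from 0.402 to 1.25 on the log2 scale, with a median of 0.493 (1.41-fold) and quartiles of 0.436 and 0.574, beside a median of 0.00112 over all 16714 genes. Only 3 members reached a difference of 1, which is 2-fold, 14 lay between 0.6 and 1, and 61 lay below 0.6. The plot of differences by harvest day shows the members packed just above the 0.4 limit with a thin upper tail.

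The highest member was G26464, whose control level was 503.3, 452.5 and 418.3 CPM on day 7, 331.9, 272.7 and 276.7 CPM on day 10, then 233.5, 259.2 and 387 CPM on day 13. Under UV it stood at 344.2, 386.5 and 314.2 CPM on day 7, 383, 227.7 and 292.9 CPM on day 10, then 617.8, 784.7 and 655.1 CPM on day 13. The 3 UV libraries of day 13 lay above every other library, while on day 7 every UV library lay below every control library. Day 13 means were 685.9 ± 87.6 CPM with UV and 293.2 ± 82.24 CPM without (SD, n = 3 each), a log2 difference of 1.25. Its control change from day 7 to day 10, -0.64, was close to the limit of 0.7, so it was among the less level members, and control day 13 replicate 3 was well above the other 2 control libraries of that day.

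The member of rank 2, G7595, had few UMIs, 343 in all. Control libraries held 2.932, 4.779 and 3.713 CPM on day 7, 1.814, 2.005 and 6.591 CPM on day 10, then 3.293, 2.532 and 2.671 CPM on day 13. UV libraries held 9.112, 2.693 and 2.767 CPM on day 7, 2.372, 6.103 and 1.84 CPM on day 10, then 6.57, 9.011 and 6.337 CPM on day 13. On days 7 and 10 single libraries of either arm reached the level of UV day 13: the 9.112 CPM of UV day 7 replicate 1 rests on 9 UMIs. Means on day 13 were 7.306 ± 1.482 CPM and 2.832 ± 0.4053 CPM (SD, n = 3 each), a log2 difference of 1.24. Because 2 genes share its second identifier, its count may be divided between their entries and is uncertain.

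Rank 3 went from a lower to a higher level under UV than in control cultures. On day 7 its level was 34.79, 37.14 and 28.65 CPM in control and 20.25, 20.58 and 26.63 CPM in UV libraries. By day 13 it was 22.18, 18.4 and 26.98 CPM in control and 44.07, 60.02 and 48.75 CPM in UV libraries. The 2 arms did not overlap on either day, with UV the lower on day 7 and the higher on day 13.

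A steadier case was rank 15, with nearly equal levels in both arms until day 10. Its UV-minus-control difference was -0.03 on day 7 and 0.01 on day 10, with group means of 28.7 to 29.79 CPM on these days. On day 13 it held 31.02, 39.49 and 42.34 CPM in control and 61.59, 58.93 and 51.91 CPM in UV libraries. Every UV library of day 13 lay above the 15 others, and control replicates 2 and 3 of day 13 were higher than any earlier library.

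**Figure D2:**
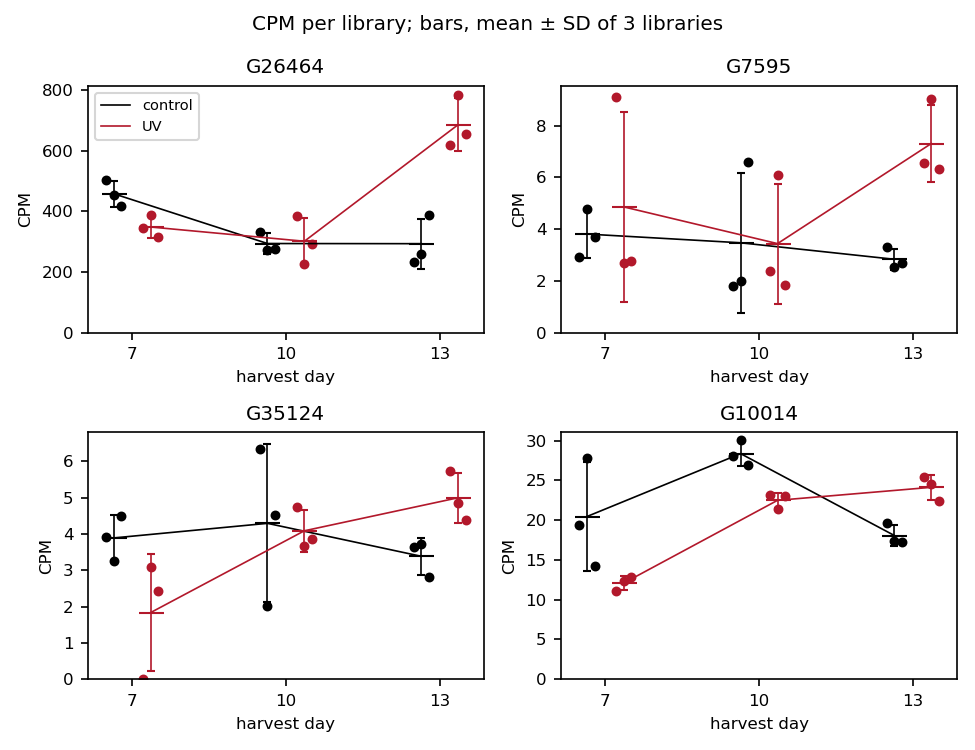
CPM per library (y axis, from 0) by harvest day (x axis) for the 2 members with the highest day 13 difference (G26464, G7595) and the 2 with the lowest mean of the day 7 and day 10 differences (G35124, G10014); points are libraries, bars the mean ± SD of 3 libraries, black control and red UV. On day 13 the UV points lie above the control points in all 4 panels; on day 7 the 3 UV points of G10014, at 11.14 to 12.8 CPM, lie below its control points.

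Because the rule bounded the early differences from above only, it also admitted genes that were lower under UV early. Only 24 of the 78 members lay within 0.15 of 0 on both early days. The other 54 were at or below -0.15 on day 7 or day 10: 24 on day 7 only, 13 on day 10 only and 17 on both. Over all members the median difference was -0.169 on day 7, with 61 of 78 below 0, and -0.0643 on day 10, with 45 of 78 below 0. A limit from above by itself moves such medians below 0. The 6893 genes within the same limits on control age and early differences had medians of -0.0687 on day 7 and -0.0649 on day 10, the latter close to that of the members.

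The 2 members with the lowest early differences were G35124 and G10014. G35124 had -1.40 on day 7 and 0.05 on day 10, but this day 7 value rests on 0 UMIs in the shallow UV replicate 1. The other 2 UV libraries of day 7 held 3.078 and 2.421 CPM, below the control values of 3.909, 3.258 and 4.509 CPM. On day 13 it held 5.748, 4.866 and 4.387 CPM in UV and 3.64, 3.713 and 2.805 CPM in control libraries, without overlap, and 2 genes share its second identifier, so its values are uncertain.

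G10014 had ample counts in most libraries. On day 7 it held 11.14, 12.31 and 12.8 CPM in UV and 19.35, 27.8 and 14.19 CPM in control libraries. Day 10 gave 23.12, 21.36 and 23 CPM against 28.11, 30.08 and 26.91 CPM, and day 13 gave 25.46, 24.51 and 22.42 CPM against 19.58, 17.38 and 17.23 CPM. UV libraries were all lower than control libraries on days 7 and 10 and all higher on day 13. In UV cultures the level went up mainly between days 7 and 10, and the day 13 difference of 0.41 came with a control change of -0.64 after day 10.

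Every UV library lay below every control library for 14 of 78 members (17.9%) on day 7, beside 13% of all 16714 genes, and for 4 members (5.13%) on day 10, beside 8.42%. These shares were near the background. UV day 7 replicate 1 contributed to the low early values. Without it the members' median on day 7 was -0.121, beside -0.0158 for all genes, and 3 members reached 0.15. All genes were not held to the limit from above, which by itself moves the members' median below 0. With all libraries, the 6893 genes under the same limits had a day 7 median of -0.0687. On day 10 the members' median was -0.0632 within the 4 shallow libraries and -0.0761 between the deep replicates 3. At that resolution single members were scattered: 10 of 78 were at or above 0.15 within the shallow and 22 between the deep libraries.

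**Figure D3:**
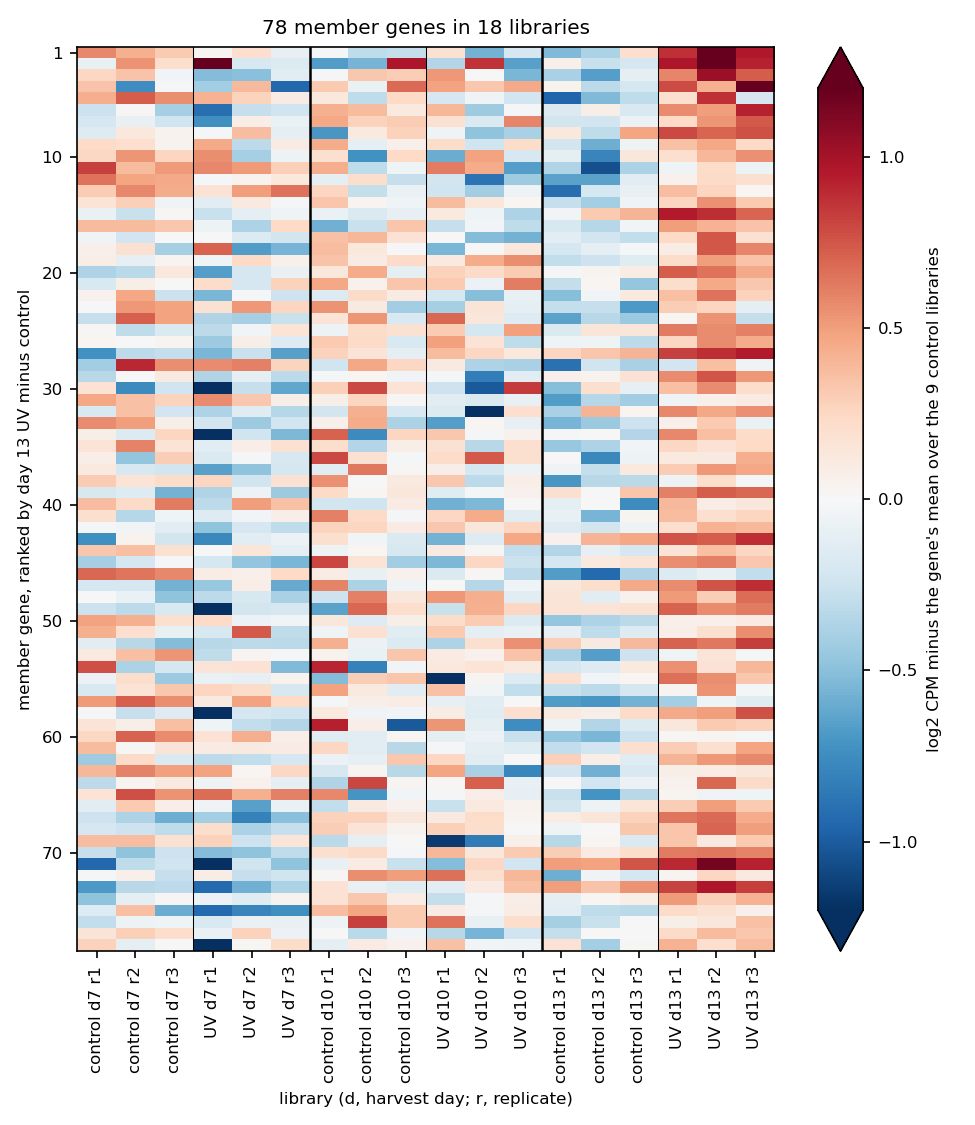
log2 CPM of each member (rows, ranked by day 13 difference) in each library (columns, grouped by harvest day and arm), minus the gene's mean over the 9 control libraries; colours stop at 1.2 in either direction. The mean of the 3 UV day 13 columns is above the control mean in 75 of the 78 rows, and several very low cells fall in the shallow UV day 7 replicate 1.

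The change between the last 2 harvests differed among members in which arm moved. From day 10 to day 13 the median change was 0.377 log2 CPM in UV and -0.198 in control cultures, beside -0.0114 and 0.0166 over all 16714 genes. In 50 members the UV mean went up and the control mean went down, in 17 both went up, and in 11 both went down with the UV mean going down less. The UV change was the larger in size for 48 of the 78. The set therefore holds genes with a late gain under UV as well as genes whose mean went down after day 10 in control cultures and went down less, or not at all, under UV.

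A subset of 20 members (25.6%) had every UV day 13 library above all 15 other libraries, beside 1.47% of all 16714 genes. The rule already required this against the control libraries of day 13, which 10.4% of all genes met, so the choice raises the share. In the 20 members the median change after day 10 was 0.694 in UV and 0.058 in control cultures, and their median day 13 difference was 0.504. Rank 29, with 36049 UMIs the best measured member, was of this kind. Its group means were 392.7 ± 60.21, 406.2 ± 10.21 and 437.8 ± 22.89 CPM on days 7, 10 and 13 without UV, and 343.5 ± 33.54, 337 ± 92.95 and 631 ± 55.96 CPM with UV (SD, n = 3 each). Its UV day 13 libraries at 609.1, 694.6 and 589.3 CPM stood clear of all others, the highest of which was control day 13 replicate 3 at 464.1 CPM.

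At the other end were the 11 members whose means went down in both arms after day 10. Their UV change lay between -0.283 and -0.00476 and their control change between -0.689 and -0.387. Rank 60, with 29632 UMIs, came close to these, with a UV change of 0.16 and a control change of -0.34. Its control libraries held 402.4, 553 and 501.8 CPM on day 7, 305.6, 310.1 and 345.2 CPM on day 10, then 245.9, 232.2 and 284.3 CPM on day 13. The UV libraries held 381.7, 460 and 357.7 CPM on day 7, 311.9, 324.1 and 281.3 CPM on day 10, then 343.5, 346 and 334.4 CPM on day 13. Its highest group was control day 7, and only control libraries of day 13 went below the values of their own arm on day 10. The highest of the 6 group means was UV day 13 in 51 members and control day 7 in 18; the lowest was control day 13 in 35 and UV day 7 in 27.

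**Figure D4:**
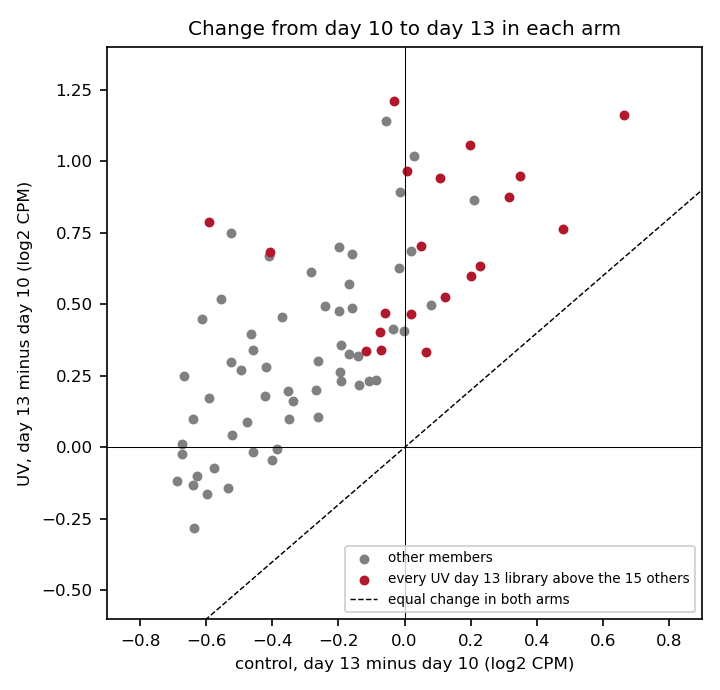
Change in mean log2 CPM from day 10 to day 13 in control cultures (x axis) and UV cultures (y axis), 1 point per member. All points lie above the dashed line of equal change, which the day 10 and day 13 limits of the rule require. The 20 members whose UV day 13 libraries exceed all 15 others (red) had UV changes of 0.334 to 1.21. Below 0 on both axes lie 11 members.

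As a group the members took up 0.46% ± 0.044 of all UMIs in UV day 13 libraries and 0.302% ± 0.0386 in control day 13 libraries (SD, n = 3 each). In the other 4 groups their mean share was 0.274% to 0.301%. The shares on day 13 were 0.432%, 0.511% and 0.438% in UV and 0.276%, 0.283% and 0.346% in control libraries, without overlap. The 4 members with over 10000 UMIs made up much of this. The other 74 held 0.253% ± 0.0199 with UV and 0.176% ± 0.018 without on day 13 (SD, n = 3 each). Every member was chosen as higher with UV on day 13, so a higher share there, with or without the 4, follows from the choice.

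Libraries of the same group were not alike in how far the members stood out. Relative to the control mean of day 13, the members' median was 0.472, 0.568 and 0.474 log2 CPM in UV replicates 1, 2 and 3, and -0.0369, -0.0517 and 0.103 in control replicates 1, 2 and 3. UV replicate 2 was the highest UV library for 40 of 78 members and control replicate 3 the highest control library for 49. With the scaling of all 18 libraries kept, the median difference was 0.549 without control replicate 3 and 0.469 without UV replicate 2. Every member stayed above 0 in both cases, and each UV day 13 library was above the control mean for all 78 members. The choice of the members fixes both of these outcomes.

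Counts were low for part of the set. Total UMIs per member ran from 234 to 36049 with a median of 1339, and 14 members had fewer than 500. A member had a median of 24 UMIs in a shallow day 10 library, down to 2, and of 87.5 in a day 13 library. Second identifiers were given for 77 members, and 7 of these, at ranks 2, 4, 7, 34, 57, 66 and 68, shared theirs with another gene and are uncertain.

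All 78 members entered edgeR's quasi-likelihood test over 18196 genes. On day 13, 22 members passed the adjusted p threshold of 0.05 as higher under UV, beside 1.54% of all genes tested, and 67 members had an unadjusted p under 0.05, beside 11.8% of all genes. Since the rule used this contrast, the count only says how many members were also called when the spread of each gene was taken into account. The 22 had a median difference of 0.572 and a median of 4315 UMIs, and the 56 others had 0.469 and 905 UMIs. This count depended on single libraries, as did the calls over all genes in either direction, 351 with all libraries. With UV replicate 2 left out, 5 members and 129 genes were called, with control replicate 1 left out 9 and 194, and with control replicate 2 left out 10 and 156. Read counts in place of UMIs gave 14 members and 268 genes. In the authors' deposited table, a total of 18 members were higher under UV on day 13 at an adjusted p under 0.05, beside 1.33% of its genes.

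On the early days few members were called. On day 7, 2 members passed as lower under UV, beside 1.72% of all genes tested, and on day 10 a single member did, beside 1.88%. These shares were near the background. At an unadjusted p under 0.05 in either direction the counts were 16 on day 7, beside 12.5% of all genes, and 2 on day 10, beside 13.2%. The day 7 count became 4 with control replicate 3 left out, 1 with control replicate 1 or UV replicate 3 left out, and 0 with control replicate 2, UV replicate 1 or UV replicate 2 left out. Calls over all genes in either direction moved too, from 349 with all libraries to 611 without control replicate 3. Without control replicate 1 and UV replicate 3 they were 136 and 107. Without control replicate 2, UV replicate 1 and UV replicate 2 they were 72, 131 and 78. The day 10 call was lost when any library of that day other than UV replicate 1 was left out. Without 1 library of day 10, 183 to 498 genes were called over all, from 460 with all libraries. The authors' deposited table listed 2 members as lower on day 7, beside 1.41% of its genes.

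The change in the UV-minus-control difference from day 10 to day 13 had a median of 0.567 over the members and ran from 0.269 to 1.38, beside a median of -0.0027 over all 16714 genes. In edgeR's test of that change 10 members passed the adjusted threshold with a more positive difference on day 13, beside 2.28% of all genes tested. The rule used both contrasts here too. Leaving out control day 13 replicate 1, UV day 13 replicate 2 or UV day 10 replicate 3 gave 5 members each, and 317, 259 and 296 genes over all, from 467 with all libraries.

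To measure the late difference in libraries that had no part in the choice, the same rule was applied to 12 libraries, leaving out 1 replicate number in all groups, and the genes so chosen were read in the 6 left-out libraries. Leaving out replicate 1, 2 and 3 in turn chose 100, 92 and 100 genes, where the rule keeps at most the 100 with the highest day 13 difference, and of these 36, 31 and 42 were among the 78. Their median day 13 difference was 0.525, 0.485 and 0.526 where they were chosen, and 0.275, 0.23 and 0.177 in the left-out libraries. The medians of all genes in the same libraries were 0.00494, 0.0145 and -0.00171. The left-out differences were above 0 for 77%, 75% and 66% of the chosen genes, beside 50.8%, 51.9% and 49.7% of all genes, and reached 0.4 for 34%, 37% and 25%, beside 9.45%, 13.6% and 6.45%. The left-out medians averaged 0.227, below the size in the libraries that chose the genes and above the medians of all genes in each of the 3 rounds. The rounds were not alike: without replicate 3, the day 10 limits rested on the 4 shallow libraries alone. With 3 readings, no p-value is given. The left-out libraries may come from the same cultures as the choosing ones. These values therefore cannot show whether the difference recurs in other cultures. All genes, unlike the chosen ones, were not held to the limits on control age and early differences.

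**Figure D5:**
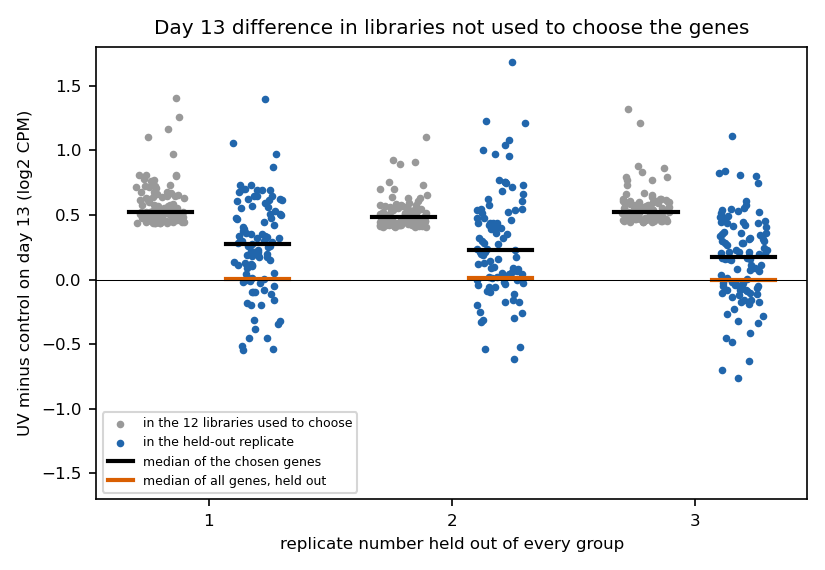
UV-minus-control difference on day 13 in log2 CPM (y axis) for genes chosen without replicate 1, 2 or 3 (x axis), in the 12 libraries that chose them (grey) and in the left-out UV and control library of that number (blue); black bars are medians of the chosen genes, orange bars medians of all genes. Left-out medians of 0.275, 0.23 and 0.177 lie below the 0.485 to 0.526 of the choosing libraries and above the medians of all genes. Left-out and choosing libraries may come from the same cultures.

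The early differences did not keep 1 direction in the left-out libraries. For the genes chosen without replicates 1, 2 and 3, the median day 7 difference was -0.0911, -0.104 and -0.177 where they were chosen and -0.0391, 0.00342 and -0.0669 in the left-out libraries. All genes had medians of -0.0577, -0.0257 and -0.0232 there. On day 10 the left-out medians were 0.144, -0.0227 and -0.0526, beside 0.000307, 0.00134 and -0.000312 for all genes. The left-out day 10 libraries of replicates 1 and 2 were shallow, as was UV day 7 replicate 1. Chosen in all 3 rounds were 10 genes, and each of these 10 was among the 78 members. Apart from the rescaling, a gene that meets the rule in all 3 rounds also meets it with all libraries. This overlap therefore follows from the rule.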

How the data were processed

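Libraries were made by MARS-seq2.0, per the labels' protocols. The authors deposited UMI counts and read counts per gene, whole numbers without normalization, and a DESeq2 table that gives a log2 fold change and an adjusted p-value for each pair of groups, per the file headers. Which aligner, counting tool, genome build and gene models they used is not given in the sources used here.

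Members were found on the 16714 genes with a total of at least 200 UMIs, with TMM scaling and log2 CPM at a prior count of 2 in edgeR 4.0.16 (R 4.3.3). The members and the tests were chosen with earlier results of these data known. Calls came from edgeR's quasi-likelihood F-test on UMI counts, with TMM, filterByExpr (minimum count 10, minimum total 15), 1 mean per group and a shared fit of all 18 libraries. Two-sided p-values were adjusted by the Benjamini-Hochberg method over 18196 genes. The procedure was tested on simulated data. Genes named by identifier were the 2 members with the highest day 13 difference and the 2 with the lowest mean of the day 7 and day 10 differences; ranks 3, 15, 29 and 60 were chosen after their values were seen. Alternatives were median-of-ratios or total-count scaling, other prior counts, filters and limits, read counts, DESeq2 1.42.0, limma 3.58.1 (voom), a replicate block, 1 day alone and leaving out libraries.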

Additional observations from a re-analysis of the deposited data

Results flagged for a closer look

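A difference between harvest days was flagged. It was that edgeR called 10 members (12.8%) for a more positive UV-minus-control difference on day 13 than on day 10. Over all genes tested the share called in that direction was 2.28%. The limits of the rule put every member's difference higher on day 13 than on day 10, so the direction was fixed by the choice. The members were chosen with the values of both days, so this count is a description of the choice. Groups of 3 libraries were too small to look for single outlying values.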

How the results depend on the processing

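The number of members stayed within 1.5 times of 78 under both other scalings, other prior counts and read counts, but not always with the same genes. Median-of-ratios scaling gave 88 genes with 77 of the 78, prior counts of 0.5 and 5 gave 79 with 75 and 74 with 68, total-count scaling 72 with 53, read counts 93 with 56, and the day 10 groups without their 4 shallow libraries 75 with 46. A minimum of 1 UMI met the cap of 100 genes, with 25 of the 78. With TMM factors taken over all genes, an alternative chosen after seeing the data, 66 genes met the rule and 60 were among the 78. A minimum of 1000 UMIs gave 51 genes, a day 13 limit of 0.5 gave 36, and early differences bounded on both sides gave 24. Without 1 library the number ran from 71 to the cap of 100, with 52 to 74 of the 78. The cap was met without control day 13 replicate 3 or any 1 of the UV day 13 libraries. Leaving out a day 13 library kept only 52 to 60 of the 78. The members' median day 13 difference without 1 library, with the 200 UMI minimum and the scaling recomputed, ran from 0.465 to 0.541. The left-out medians ran from 0.177 to 0.275. Member calls without 1 library ran from 0 to 4 on day 7, 0 to 1 on day 10, 5 to 25 on day 13 and 5 to 15 for the change between days 10 and 13. The calls over all genes moved as well. They ran from 72 to 611 on day 7 and from 183 to 498 on day 10. On day 13 they ran from 129 to 445, and for the change from 259 to 570. Day 7 calls were 0 with total-count scaling, 7 without a low-count filter and 4 with that day's libraries alone. Over all genes these settings called 117, 770 (of 31094 tested) and 556, from 349 in the main test. Calls by limma-voom were 2 (488 genes over all), as were those by DESeq2 among the 26 members it gave an adjusted p (417 genes). Each of these 2 tools, and that day's libraries alone, shared only 1 call with the 2 of the main test. Day 10 calls were 0 with total-count scaling, read counts, DESeq2 (40 members tested) or that day's libraries alone (61 tested), and limma-voom called 1. Over all genes these settings called 417, 376, 464, 347 and 485, from 460 in the main test. Day 13 calls were 14 with read counts, with 268 genes over all, from 351 in the main test. The causes were not tested. Replicate numbers did not pair the libraries in general: 1 of 9 same-numbered pairs correlated above 0.1 in deviations from group means (r from -0.0636 to 0.23). That pair was the deep replicates 3 of day 10, where replicate number follows the split between shallow and deep libraries. With the replicate block the calls were 2, 1 and 26 on days 7, 10 and 13 and 11 for the change. Over all genes the block gave 535, 563, 413 and 530 calls, from 349, 460, 351 and 467 without it. Shallow libraries on day 10 and UV day 7 replicate 1 limit the early differences of members with few UMIs.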
